A study of Homo sapiens with 2 samples.

Results

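The genes described here are 10 components of the NRF2 antioxidant response, which are NFE2L2, KEAP1, HMOX1, NQO1, GCLC, GCLM, TXNRD1, TXN, SRXN1 and OSGIN1. They were selected by gene name alone, with no measured value in the rule, although earlier results of these data were known when the set was proposed. All 10 were found among the 58735 genes of the deposited count table and passed the filter of at least 10 counts in 1 library. RNA was sequenced from PLC8024 cells, a human HCC line that the labels call 8024 and Alexander cells and the methods give as PLC/PRF/5. There was 1 library of wild-type cells (MAEL WT, listed as non-treated) and 1 library of cells in which the cancer/testis gene MAEL was knocked out with an sgRNA and Cas9 (MAEL KO). Knockout cells were sorted on mCherry and grown from single clones, so that clone, culture and knockout cannot be told apart here. With 1 library per group, no difference has a replicate check, no test was made, and all intervals cover counting error only.

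NRF2, the protein of NFE2L2, is a bZIP transcription factor that binds antioxidant response elements together with small MAF proteins. In unstressed cells the KEAP1 adaptor holds NRF2 and hands it to a CUL3 ubiquitin ligase for degradation. Electrophiles and oxidants modify cysteines of KEAP1, after which NRF2 accumulates and induces enzymes that make glutathione, reduce thioredoxin and quinones, break down haem and supply NADPH. Since NRF2 is controlled mostly as a protein, the level of its RNA is not a measure of its activity. In liver and in HCC the pathway is known for detoxification and drug resistance.

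The antioxidant response element was searched by its core, TGACNNNGC, on both strands of the 250 bases before each RefSeq start site (GRCh38.p14). Promoters were found for 9 of the 10 genes, at 12 start sites, and not for HMOX1. The core was present before 4 of these 12 start sites, in KEAP1, GCLM and TXNRD1, and before 10.91% of all 35116 RefSeq start sites. Elements outside these 250 bases were not searched, so a lack of matches covers this stretch only. The AP-1 site TGACTCA, which can overlap the core, was present before 1 of the 12, in OSGIN1, and before 4.2% of all. The matches with 10 bases on either side are shown because the 4 genes that hold them lay on both sides of 0 in the comparison of libraries. They are written 5′ to 3′ on the strand of the gene, with the match in capitals, and a match on the opposite strand appears as the reverse complement of the motif.

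GCLM, opposite strand, minus-strand gene, chr1:93909446-93909474: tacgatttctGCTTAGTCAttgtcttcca
KEAP1, opposite strand, minus-strand gene, chr19:10502784-10502812: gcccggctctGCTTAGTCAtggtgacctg
KEAP1, same strand, minus-strand gene, chr19:10502807-10502835: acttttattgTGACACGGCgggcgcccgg
TXNRD1, first start, same strand, plus-strand gene, chr12:104215670-104215698: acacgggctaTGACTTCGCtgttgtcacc
TXNRD1, second start, opposite strand, plus-strand gene, chr12:104286920-104286948: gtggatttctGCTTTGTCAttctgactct
OSGIN1, TGACTCA, same strand, plus-strand gene, chr16:83953133-83953159: gggcccctgcTGACTCAcgcttatgaa

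GCLM and KEAP1 held the same 9 letters in capitals. The match of GCLM spanned positions -34 to -26 from its start site at 93909430, and that of KEAP1 spanned -31 to -23 from a start site at 10502771, while the other KEAP1 start site at 10503356 had none before it. The KEAP1 windows overlap each other. A match of letters describes the sequence and does not show binding.

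The MAEL WT library held 19904136 counts in all and the MAEL KO library 20833332. MAEL itself had 1 count in MAEL WT and 0 in MAEL KO. Neither exceeds the floor of 3 counts, so the transcript was not detected in either library and the targeted gene gives no check of the labels. The study describes PLC8024 as its line with the highest MAEL expression. It shows the knockout by Western blot and by an assay of mismatched DNA. Why the RNA count in MAEL WT was nonetheless this low was not tested. Of 10 hepatocyte markers all were higher in MAEL KO, as were 8593 of the 17887 genes that passed the filter. The markers had a median log2 fold change of 1.84. Their summed level was 11791 CPM in MAEL WT and 28183 CPM in MAEL KO. Of the listed markers, ALB, AFP and TTR were near absent in MAEL WT, with 59, 26 and 20 counts, against 8550, 1351 and 155 in MAEL KO. Their log2 fold changes were 7.36, 5.85 and 3.10, far above the median of the list. APOB had 80091 counts in MAEL WT and 135805 in MAEL KO. Markers of other cell types were low in both libraries, with a summed level of 12.6 and 9.35 CPM for 6 fibroblast markers, 16.2 and 21.6 CPM for 5 endothelial markers and 59.4 and 39.5 CPM for 6 leukocyte markers. CD3E was at 0 in both, and LYZ gave most of the leukocyte sum, with 1251 and 737 counts. The part of these markers in the values below was not tested, and in RNA of whole cultures fewer cells of a type and less RNA per cell cannot be told apart.

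To ask whether the NRF2 response differed between the libraries, counts were scaled by TMM, 1 was added to each, and the MAEL KO level was set against the MAEL WT level as a log2 fold change. RNA of the factor NFE2L2 and of its inhibitor KEAP1 was higher in MAEL KO, whereas among the 8 target genes SRXN1, TXNRD1, GCLM and NQO1 were lower, GCLC was level, and HMOX1, TXN and OSGIN1 were higher. None of the 10 members was past 2 on the log2 scale, whereas 7.8% of the 17887 genes tested were, 2.16% above 2 and 5.64% below -2. Past a log2 fold change of 1, SRXN1 alone was lower (1 of 10 members, against 16.5% of all genes below -1) and none was higher (against 10.2% above 1). Every member had at least 341 counts in each library, whereas the genes tested include many with few counts. The shares of all genes are thus not those of genes counted like the members. The members' median was 0.09, beside -0.04 for all genes tested. Of all genes tested, 8593 were above 0 and 9294 below, which is the background for the direction counts of the lists under TMM. The counting interval lay above 0 for 5 members and below 0 for 4, and it included 0 for GCLC. For genes counted this well the interval is narrow and leaves out 0 even for small differences. The share of all genes whose interval left out 0 was not computed, so these counts do not set the members apart.

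Scaling by total counts in place of TMM moved the median of all genes to -0.31, a shift of -0.27, and moved the members with it. Their median then was -0.19, 4 members were above 0, 6 were below it, and 2 passed -1, SRXN1 at -1.60 and TXNRD1 at -1.12. Among all genes past 2, the share that was higher in MAEL KO was 27.7% with TMM and 17.1% with total counts, and past 1 it was 38.2% and 22.6%. Relative to the median of all genes, 6 members were above it and 4 below.

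**Figure D1:**
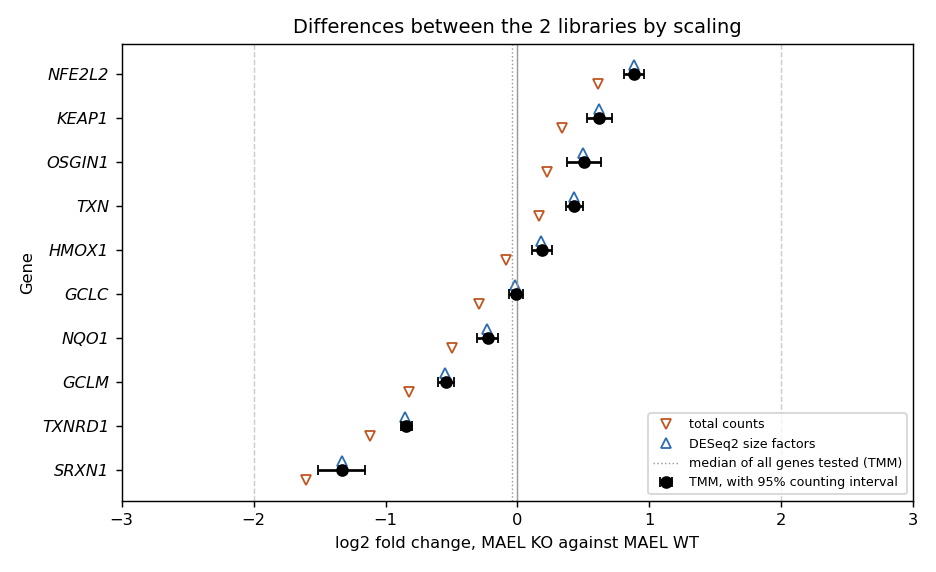
MAEL KO level over MAEL WT level as a log2 fold change (horizontal axis) for each of the 10 genes (vertical axis, ordered by value). Filled points with bars are the TMM values with 95% counting intervals, open triangles are other scalings, the solid line marks 0, the dotted line the median of all genes tested and the dashed lines the threshold of 2. The genes run from SRXN1 at -1.33 to NFE2L2 at 0.89, none reaches the dashed lines, and total counts place every gene to the left of its TMM value, with HMOX1 crossing 0 to -0.09.

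NFE2L2 (ENSG00000116044), which encodes NRF2, lies on the minus strand of chromosome 2 of GRCh38, chr2:177227595-177392697. It had 2321 counts in MAEL WT and 3706 in MAEL KO, or 2164 and 3997 after scaling. This was the highest value of the members, a log2 fold change of 0.89 (95% counting interval 0.81 to 0.96), or 1.85-fold, and 87.6% of the genes tested had a lower one. With total counts it was 0.61. Its exons share 1054 bases with AC019080.1, which had 125 and 34 counts, 190 with the antisense gene AC079305.1, which had 8 and 20, and 54 with AGPS on the opposite strand, which had 3261 and 3241. The strand setting of the counting is not given in the sources used here, so reads of a gene and its antisense partner cannot be told apart.

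KEAP1 (ENSG00000079999), the cysteine-rich sensor that keeps NRF2 low, lies on the minus strand at chr19:10486120-10503741. Its counts were 1561 in MAEL WT and 2075 in MAEL KO, a log2 fold change of 0.62 (0.53 to 0.72), or 0.34 with total counts. The factor and its sensor were thus both higher in the MAEL KO library. A ratio of 2 genes within a library does not depend on the scaling between libraries. The ratio of NFE2L2 to KEAP1 was 0.935 in MAEL WT and 1.12 in MAEL KO on the deposited FPKM values, a log2 change of 0.26 (0.14 to 0.39).

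SRXN1 (ENSG00000271303) encodes sulfiredoxin, which repairs peroxiredoxins whose active cysteine has been overoxidized. It lies on the minus strand at chr20:646615-653370 and had 993 counts in MAEL WT and 341 in MAEL KO. Its log2 fold change of -1.33 (-1.51 to -1.15), or 2.51-fold lower in MAEL KO, was the lowest of the members, and 11.3% of all genes tested were lower still. SRXN1 shares 2292 bases of its exons with AL121758.1, a gene on the same strand with 6 and 8 counts. How reads in such shared bases were assigned is not given in the sources used here.

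TXNRD1 (ENSG00000198431), the cytosolic selenoenzyme that reduces thioredoxin with NADPH, lies on the plus strand at chr12:104215779-104350305. It was the best counted member, with 14416 counts in MAEL WT and 6945 in MAEL KO. Its log2 fold change was -0.84 (-0.88 to -0.80), or 1.79-fold lower in MAEL KO. None of the 3 genes that lie within it shares its exons. TXN (ENSG00000136810) encodes thioredoxin, the substrate of TXNRD1, on the minus strand at chr9:110243811-110256640. In contrast to the reductase, TXN was higher in MAEL KO, with 3958 and 4614 counts and a log2 fold change of 0.43 (0.37 to 0.49), or 0.16 with total counts. The 7 listed TXN pseudogenes had no more than 6 counts in either library.

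The thioredoxin genes therefore lay on both sides of 0. On the deposited FPKM values, which are per length, TXN was the highest member in both libraries, at 158 in MAEL WT and 213 in MAEL KO. TXNRD1 followed in MAEL WT at 98.3 FPKM, and in MAEL KO, at 54.6 FPKM, it also came after HMOX1 at 64.0. SRXN1 went from 16.8 to 6.67 FPKM and had the lowest level of the members in MAEL KO, where 63.8% of the genes tested had a lower level, against 84.6% in MAEL WT.

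**Figure D2:**
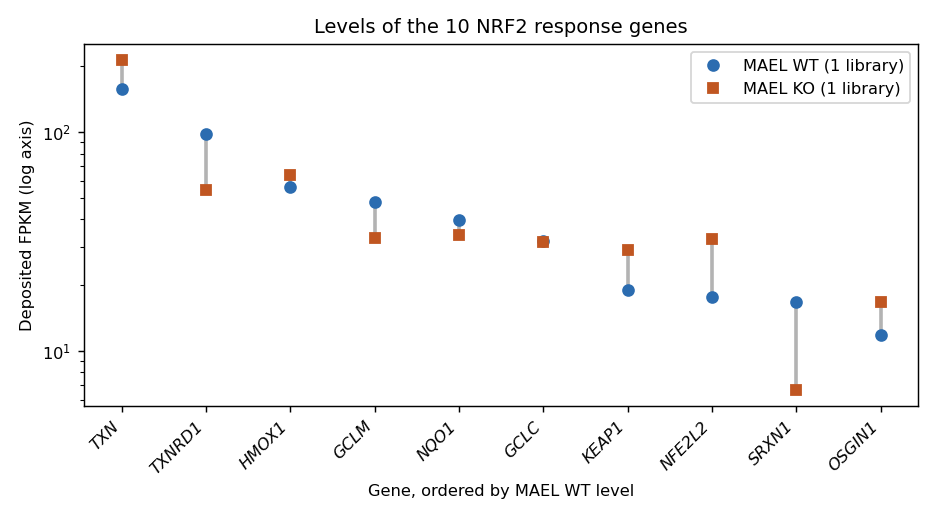
Deposited FPKM on a log axis for each of the 10 genes, ordered by the MAEL WT level, with circles for the MAEL WT library, squares for the MAEL KO library and a grey line between them. TXN is highest in both libraries, and SRXN1 has the longest line, from 16.8 FPKM in MAEL WT to 6.67 in MAEL KO.

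Glutathione synthesis starts with glutamate-cysteine ligase, which consists of the catalytic subunit GCLC and the modifier subunit GCLM. GCLC (ENSG00000001084, minus strand, chr6:53497341-53616970) had 6037 counts in MAEL WT and 5168 in MAEL KO, a log2 fold change of -0.01 (-0.07 to 0.04), or -0.29 with total counts. GCLM (ENSG00000023909, minus strand, chr1:93885205-93909456) had 5713 and 3391 counts, a log2 fold change of -0.54 (-0.60 to -0.48). The modifier subunit was thus lower relative to the catalytic subunit in MAEL KO. The ratio of GCLC to GCLM was 0.662 in MAEL WT and 0.955 in MAEL KO on FPKM values, a log2 change of 0.53 (0.45 to 0.61). GCLC shares 529 exon bases with AL033397.1, which had 13 and 0 counts, and no gene overlaps GCLM.

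HMOX1 (ENSG00000100292), the inducible haem oxygenase, lies on the plus strand at chr22:35380361-35394214 and has no overlapping gene in the table. It had 2971 counts in MAEL WT and 2919 in MAEL KO, a log2 fold change of 0.18 (0.11 to 0.26) with TMM but of -0.09 with total counts, so that its direction depends on the scaling. NQO1 (ENSG00000181019), which reduces quinones by a pair of electrons, lies on the minus strand at chr16:69706996-69726951. It had 2820 and 2083 counts, a log2 fold change of -0.23 (-0.31 to -0.14), and the antisense gene that shares some of its exons, AC092115.2, was at 0 in both libraries. Both enzymes are widely used readouts of NRF2 and with TMM they differed by 1.14-fold and 1.17-fold, in opposite directions.

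OSGIN1 (ENSG00000140961), named as a growth inhibitor induced by oxidative stress, lies on the plus strand at chr16:83948282-83966332. It had 900 counts in MAEL WT and 1101 in MAEL KO, a log2 fold change of 0.50 (0.37 to 0.63), or 0.22 with total counts. Its exons share 481 bases with AC009119.2, which had 17 and 12 counts.

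Ordered by log2 fold change, the members ran from SRXN1 over TXNRD1, GCLM, NQO1, GCLC, HMOX1, TXN, OSGIN1 and KEAP1 to NFE2L2. The distance from SRXN1 to NFE2L2 was 2.21 on the log2 scale, a 4.64-fold difference in ratio. Of the 9 pairs of neighbours, the counting interval of the difference included 0 for TXN and OSGIN1 (0.07, -0.07 to 0.21) and for OSGIN1 and KEAP1 (0.12, -0.04 to 0.28). For the other 7 pairs it lay above 0, the smallest difference being that of GCLC and HMOX1, 0.20 (0.11 to 0.29). Since the pairs were taken from this same order, every difference is positive by construction. The intervals are thus no test of the order.

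Several members have a relative of the same family or of similar chemistry, and the within-library ratio to it does not depend on the scaling. TXNRD1 was lower against the mitochondrial reductase TXNRD2, with a ratio of 42.7 in MAEL WT and 22.5 in MAEL KO on FPKM values, a log2 change of -0.92 (-1.13 to -0.72). TXNRD2 itself had 421 and 385 counts. HMOX1 was lower against the constitutive haem oxygenase HMOX2, from 6.15 to 4.75, a log2 change of -0.37 (-0.53 to -0.22), since HMOX2 itself was at 0.56.

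The ratio of TXN to the mitochondrial thioredoxin TXN2 changed by -0.23 (-0.37 to -0.09) on the log2 scale. NQO1 went the other way, by 0.29 (0.19 to 0.39), because NQO2 was at -0.52. OSGIN1 was lower against OSGIN2, by -1.04 (-1.20 to -0.87), as OSGIN2 had 1092 counts in MAEL WT and 2739 in MAEL KO, a log2 fold change of 1.54. The widest shift was that of NFE2L2 against NFE2L1, the related bZIP factor that responds to proteasome stress. Their ratio went from 0.168 in MAEL WT to 0.574 in MAEL KO, a log2 change of 1.77 (1.69 to 1.86), with NFE2L1 at 13467 and 6288 counts.

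**Figure D3:**
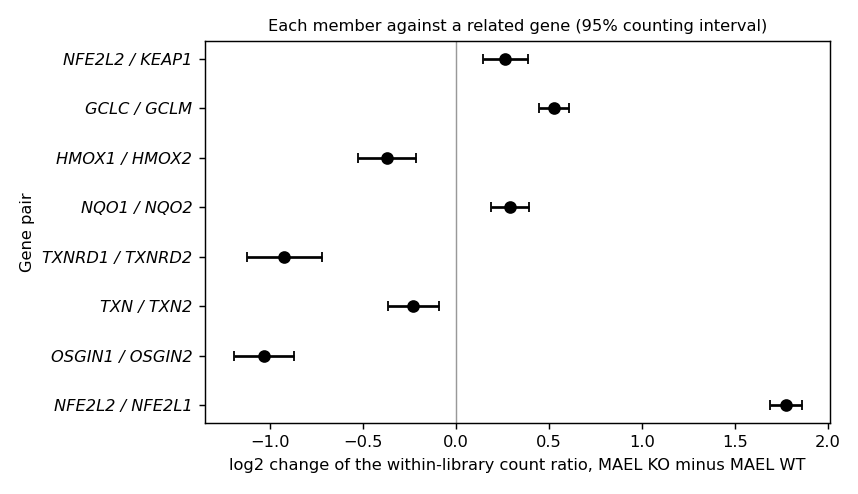
Change of the ratio of 2 genes within a library, as log2 of the MAEL KO ratio over the MAEL WT ratio (horizontal axis) with 95% counting intervals, for 8 gene pairs (vertical axis). The pairs run from OSGIN1 over OSGIN2 at -1.04 to NFE2L2 over NFE2L1 at 1.77, and no interval includes 0.

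A list of 15 genes held proteins that act on NRF2 or bind DNA with it, and also related factors such as NFE2 and NFE2L1. Its values are thus not those of regulators and partners alone. Of the 15 genes, 14 passed the filter. Their median log2 fold change was -0.23, 7 were above 0 and 7 below, 3 were below -1 and none was above 1. With total counts the median was -0.50, with 5 above 0 and 9 below, and it was 0.09 both with no filter on counts and with a minimum of 100 counts, so its sign depends on the setting. The small MAF partners MAFG and MAFK were lower in MAEL KO, MAFG with 2899 and 938 counts (-1.42, -1.53 to -1.31) and MAFK with 8517 and 3231 (-1.19, -1.25 to -1.13), and MAFF was at -0.74. NFE2, a haematopoietic relative, had 13 counts and 1 count (-2.66, -8.90 to -0.76). SQSTM1, the autophagy receptor that draws KEAP1 away from NRF2, had 55582 and 24697 counts, a log2 fold change of -0.96 (-0.98 to -0.94).

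CUL3 and RBX1, parts of the ligase that KEAP1 serves, were higher in MAEL KO, at 0.72 (0.61 to 0.84) and 0.94 (0.80 to 1.09). BTRC, the adaptor of another ligase that degrades NRF2, was lower, with 1336 and 794 counts (-0.54, -0.67 to -0.41). DPP3, which competes for KEAP1, was at 0.86. BACH1, the repressor that occupies the same elements, was at 0.09 (-0.02 to 0.20) and at -0.19 with total counts. The RNA of NFE2L2, KEAP1, CUL3 and RBX1 thus lay above 0, and that of 3 small MAF genes and SQSTM1 below it, under TMM and under total counts.

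Of 15 other genes of glutathione synthesis and use, 9 were below 0 and 6 above, with a median of -0.10, and with total counts 13 were below and 2 above, with a median of -0.37. The transporter that imports cystine was lower in MAEL KO in both its chains, SLC7A11 with 2521 and 930 counts (-1.23, -1.34 to -1.12) and SLC3A2 with 8350 and 3826 (-0.92, -0.97 to -0.86). CHAC1, which breaks glutathione down and is a known target of ATF4, had 2016 counts in MAEL WT and 131 in MAEL KO (-3.72, -4.00 to -3.48). It was the only gene of this list past 2. The enzymes that complete and recycle glutathione were near 0, with GSS at 0.13 (0.05 to 0.20), or -0.15 with total counts, and GSR at -0.10 (-0.17 to -0.03). The selenoenzyme GPX2 was at -1.13, whereas GPX3 and GGCT were higher, at 1.70 and 1.06.

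Of 14 other genes of the thioredoxin and peroxiredoxin system, 11 were above 0, with a median of 0.53. Of all 17887 genes tested, 8593 were above 0. With total counts 9 of the 14 were above 0, with a median of 0.26. PRDX1 had 5619 and 9979 counts (1.04, 0.99 to 1.09) and PRDX3, its mitochondrial relative, was at 0.73. These peroxiredoxins are substrates of SRXN1, which was lower. Past -2 were SESN2, a stress-induced sestrin, with 3476 and 464 counts (-2.69, -2.84 to -2.55), and TXNIP, the inhibitor of thioredoxin, with 636 and 119 (-2.20, -2.50 to -1.92). SESN1, the sestrin induced by p53, was higher at 1.37.

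Among 12 genes of haem, iron and quinone handling the median was -0.29, or -0.57 with total counts, and 2 were below -1 and 1 above 1. FTH1, the heavy chain of ferritin, had 26366 and 11059 counts (-1.04, -1.08 to -1.01), while the light chain FTL had 100888 and 109047 (0.32, 0.31 to 0.33). The biliverdin reductases also differed, with BLVRB at -0.71 and BLVRA at 0.79. ABHD4 was at -1.03, and OSGIN2, given above, was the highest. FTH1 and FTL have many processed pseudogenes, and how reads that map to several places were counted is not given in the sources used here.

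NADPH feeds both glutathione and thioredoxin reduction. The list of its supply held 6 genes, with a median of -0.21, or -0.49 with total counts, 2 genes below -1 and none above 1. Malic enzyme ME1 had 3107 and 1165 counts (-1.20, -1.30 to -1.11). The pentose phosphate enzymes PGD and TALDO1 were closer to 0, at -0.05 (-0.09 to -0.01) and 0.39.

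For conjugation, reduction and export, 20 of 24 genes passed the filter, with a median of -0.10 and 10 genes on each side of 0. With total counts the median was -0.37, with 6 above 0 and 14 below, and for genes with at least 100 counts it was -0.29. The exporter ABCC3 was lowest, with 802 and 213 counts (-1.70, -1.93 to -1.48), followed by the aldo-keto reductases AKR1C1 (-1.14) and AKR1B1 (-0.89). AKR1C1 and AKR1C2 are near-identical, so the split of reads between them is uncertain. At the other end were GSTA1, with 4 and 19 counts (2.18, 0.87 to 4.47), MGST2 at 1.14 and MGST3 at 0.97. GSTM1 was listed at 0 in both libraries.

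Over these 6 lists and the 2 given in the closing observations, 106 of 112 genes passed the filter. Of the 106, 4 were below -2 and 1 above 2, or 4.72%, against 7.8% of all genes. Past 1, 15 were lower and 10 higher, or 23.6%, against 26.7% of all genes, and the median was 0.07. The redox genes as a whole thus passed the thresholds at a share near or below that of all genes tested. That background holds many genes with few counts. Of its 1395 genes past 2, 468 had at least 100 counts, and of its 4778 past 1, 2211 did. The share among genes of similar count was not computed, and the values above describe single genes.

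**Figure D4:**
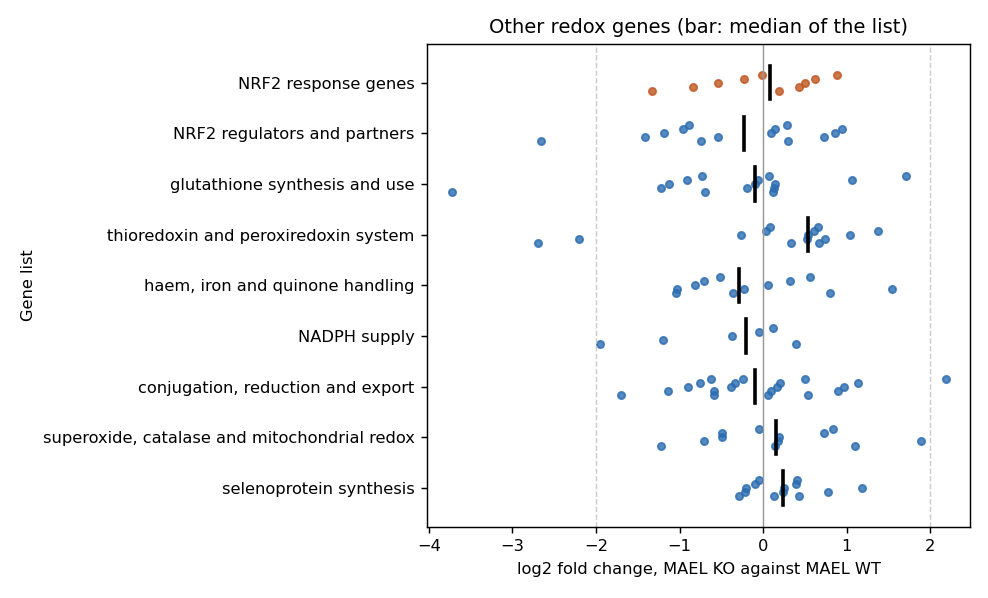
MAEL KO level over MAEL WT level as a log2 fold change (horizontal axis) of each gene that passed the filter, for the 10 NRF2 response genes and 8 lists of other redox genes (vertical axis), with a black bar at each median and dashed lines at 2 and -2. Each list spreads over both sides of 0, and the genes farthest to the left are CHAC1 at -3.72, SESN2 at -2.69, NFE2 at -2.66 and TXNIP at -2.20.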

How the data were processed

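The authors sequenced total RNA on a HiSeq platform and deposited raw read counts per gene and FPKM values for 1 library per group. The submitters' processing notes name HISAT2 2.0.5, featureCounts 1.5.0-p3 and hg19, but the gene coordinates in the tables are GRCh38, and 58653 of 58735 genes have those of GENCODE 29. The deposited FPKM values use library sizes that the authors rescaled between the libraries. Counts were scaled by TMM in edgeR 4.0.16 (R 4.3.3), with DESeq2 1.42.0 for other size factors. Fold changes were computed in Python 3.11.15 with pandas 2.3.3, NumPy 2.4.6 and SciPy 1.17.1, and plots in matplotlib 3.10.9. Intervals (95%) come from the exact Clopper-Pearson limits of MAEL KO counts among both libraries' counts of a gene, or are normal intervals for ratios of 2 genes. Since reads carried no molecular identifiers and may repeat a molecule, intervals and the floor of 3 counts cover counting error only. The threshold of 2 is the fold change part of the study's rule, which also set a limit on the adjusted p value. That limit was not applied here because no test was made, so genes past 2 are not the study's calls.

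The members and lists were chosen with earlier results of these data known. Named are all members, genes of each list past 2, up to 3 at each end of a list, relatives and overlapping genes of members, and SLC7A11, GSS, GSR, SQSTM1, CUL3 and BACH1. MAFF, BTRC, SLC3A2, FTL, BLVRB, AKR1C2, GSTM1 and SOD3, and the ratio of NFE2L2 to KEAP1, were added after values were seen. Some genes covered by these choices are not reported here. With 2 libraries, no genes were named for likeness of pattern. The duplicated symbol SOD2 was taken at its counted row. On simulated data, 200 of 200 genes changed by 3 on the log2 scale passed 2 in the right direction. Of 17202 unchanged genes, 16 passed 2 in either direction. Counts were Poisson draws around a mean shared by both libraries, with no variation between clones or cultures. Changed genes had at least 100 expected counts in MAEL WT. The simulation therefore checks the computation and gives no error rate for these libraries. Promoter sequences are from RefSeq.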

Additional observations from a re-analysis of the deposited data

How the results depend on the processing

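With 1 library per group, leaving out a library was not possible. No paired analysis was possible because each group has 1 library. Of 60 values of the 10 members under other scalings, added counts, the FPKM ratio and centring on the median of all genes, 50 stayed within their counting interval. The other 10 were all with total counts, which moved every member outside its interval and changed the sign of HMOX1 to -0.09. The FPKM ratio gave the same rounded values as the DESeq2 size factors, and added counts hardly move genes counted this well. The 50 are thus mostly not separate checks. Centring was chosen after seeing the data. List medians moved by up to 0.32 (log2), and the binomial intervals of such short lists are too wide to judge this. With total counts the medians of the members (-0.19), of the catalase and superoxide list (-0.12) and of the selenoprotein list (-0.04) changed sign from positive to negative. The median of the list of NRF2 regulators, partners and related factors was -0.23, and 0.09 without a count filter or with at least 100 counts. No member passed 2 under any alternative, and 1 passed 1, except 2 with total counts, by the shift of that scaling. Among all genes, 1395 passed 2 and 4778 passed 1. These counts were 2802 and 11049 without a count filter and 468 and 2211 for genes with at least 100 counts. They were 763 past 2 with 5 added to the counts and 3142 past 1 for protein-coding genes alone. Fewer or more genes enter under these filters, and a larger added count shrinks low genes. Low counts limit NFE2, GSTA1 and MAEL, which had under 20 counts in both libraries.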

Other observations

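Catalase and the superoxide dismutases were listed with glutaredoxins, methionine sulfoxide reductases, NNT and CCS, 13 genes of which 12 passed the filter. Their median log2 fold change was 0.16, with 7 above 0 and 5 below, and with total counts it was -0.12, with 4 above and 8 below. CAT, the peroxisomal catalase, had 873 counts in MAEL WT and 2803 in MAEL KO, a log2 fold change of 1.89 (95% counting interval 1.78 to 2.0). MSRB1, a selenoenzyme that reduces methionine sulfoxide, had 1488 and 2747 counts (1.09, 1.00 to 1.19), and SOD1, the cytosolic superoxide dismutase, had 4410 and 6774 (0.83, 0.77 to 0.88). The lowest were MSRA, with 42 and 15 counts (-1.22, -2.23 to -0.39), MSRB2 at -0.71 and CCS, the copper chaperone of SOD1, at -0.49. SOD1 and its chaperone thus lay on opposite sides of 0. SOD3 was listed at 0 in both libraries.

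TXNRD1 contains selenocysteine, and a list of 13 genes, named for selenoprotein synthesis, was examined beside it. The list also holds the selenoproteins SELENOP, SELENOW, SELENOH, SELENOK and SELENOT and the receptor LRP8. Its median is thus not that of the synthesis genes alone. All 13 passed the filter, with a median of 0.24, 8 above 0, 5 below and none below -1. With total counts the median was -0.04, with 5 above 0 and 8 below. SEPHS2, which makes the selenium donor and is itself a selenoprotein, had 12313 counts in MAEL WT and 24159 in MAEL KO (1.18, 1.15 to 1.21), and SEPHS1 was at 0.77. The selenium carrier SELENOP was at 0.43. The lowest were SELENOK at -0.29, SECISBP2 at -0.22 and LRP8 at -0.21. TXNRD1 at -0.84 was lower than each of these 13 genes.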
